A study of Drosophila melanogaster with 14 samples.

Results

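The Ty1/copia group of LTR retrotransposons holds copia itself and the smaller families 1731, Dm88 and frogger of Drosophila melanogaster, and those 3 families are described here. Their members were all insertions of the transposable element (TE) table whose FlyBase symbol carries the family name 1731, Dm88 (in either case of letters) or frogger before the brace. This gave 46 insertions of the 5392 listed, 13 of 1731, 31 of Dm88 and 2 of frogger. Libraries came from heads of tau transgenic flies, whose transgene expresses tau, a protein that binds microtubules and aggregates in tauopathies, and from heads of control flies labelled wild type. Each genotype gave 3 total RNA libraries, each made from 500 ng of RNA of 6 pooled heads, with ribosomal RNA depleted. The labels name neither the promoter that drives the transgene nor the form of tau, nor the age or sex of the flies. The table lists TEs only, so the tau transgene and the markers of head tissue were not checked.

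LTR retrotransposons are transcribed from their long terminal repeats and copied from RNA into DNA before they insert again. In the Ty1/copia group the integrase is encoded ahead of the reverse transcriptase, the reverse of the order in the Ty3/gypsy group, and the elements carry no envelope gene. The 1731 element is known for transcription that the moulting hormone ecdysone represses in cultured fly cells.

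Depth bounds what can be read from families as small as these. The 3 tau libraries held 76721, 269102 and 331009 counts in TE insertions, against 289818, 277415 and 232572 in the 3 control libraries. Tau 1 was the shallowest, with 671 insertions at 10 or more counts, where the other libraries had 1166 to 1321. Levels are given as CPM, the counts scaled to a common library total with TMM factors, and they are relative to the TE reads of the table, not to all RNA of the head. In such bulk samples a change in the number of cells that express a family and a change in RNA per cell cannot be told apart. Copy lengths were not used, so no level is per length and levels are compared between genotypes, not between families.

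None of the 3 families passed the test for a difference between tau and control heads. The family 1731 was 1.25-fold higher in tau and Dm88 1.19-fold higher, both with tau libraries above all control libraries in CPM, and frogger was level. As plain shares of the TE counts, without TMM factors, the groups of 1731 and of Dm88 overlapped. Of the 116 families tested, 31% passed in either direction with edgeR's quasi-likelihood test at a Benjamini-Hochberg adjusted p under 0.05, and 17.2% passed as higher in tau. At an unadjusted p under 0.05, 2 of the 3 families and 43.1% of all families passed. DESeq2 called 1 of the 3 families, 1731, where it called 30.2% of all families. With limma-voom none of the 3 was called, where 31% of all families were.

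The family 1731 had 436, 1286 and 1610 counts in tau 1, tau 2 and tau 3, against 1219, 1366 and 873 in control 1, control 2 and control 3. In CPM these were 5758, 4905 and 5092 in tau, against 4110, 4817 and 3608 in control. All 3 tau libraries lay above all 3 control libraries in CPM, though tau 2 exceeded control 2 by little. As plain shares of the TE counts, without TMM factors, tau 2 (0.478%) and tau 3 (0.486%) lay below control 2 (0.492%). It averaged 5252 ± 448 CPM in tau heads, against 4178 ± 607 CPM in control heads (n = 3 each, SD). On the log2 scale the fold change was 0.32 ± 0.11 (SE), with a 95% interval of 0.06 to 0.58 and an edgeR adjusted p of 0.0659. Without control 2, which had the highest level of the control libraries, it was 0.44 and passed (edgeR adjusted p = 0.0147).

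Dm88, the family with the most copies of the 3, had 88, 275 and 315 counts in tau, against 237, 248 and 235 in control. In CPM this was 1162, 1049 and 996 in tau, against 799, 875 and 971 in control. Its groups did not overlap in CPM either, and tau 3 and control 3 were the closest pair. As a plain share of the TE counts, tau 3 (0.0952%) lay below control 3 (0.101%). Dm88 averaged 1069 ± 84.8 CPM in tau heads, against 882 ± 86.3 CPM in control heads (n = 3 each, SD). Its log2 fold change was 0.26 ± 0.10 (SE), with a 95% interval of 0.02 to 0.50 and an edgeR adjusted p of 0.0987. Groups of CPM values did not overlap in 43.1% of all tested families, so 2 of 3 is near the background.

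The smallest family by copies, frogger, had 111, 219 and 391 counts in tau, against 289, 302 and 320 in control. Its levels were 1466, 835 and 1237 CPM in tau, against 974, 1065 and 1323 CPM in control. The groups overlapped, with tau 2 below and tau 1 above every control library. Means were 1179 ± 319 CPM in tau heads, against 1121 ± 181 CPM in control heads (n = 3 each, SD). For frogger the log2 fold change was 0.02 ± 0.20 (SE, edgeR adjusted p = 0.987), and its 95% interval of -0.45 to 0.48 covers folds from 0.733 to 1.40.

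**Figure D1:**
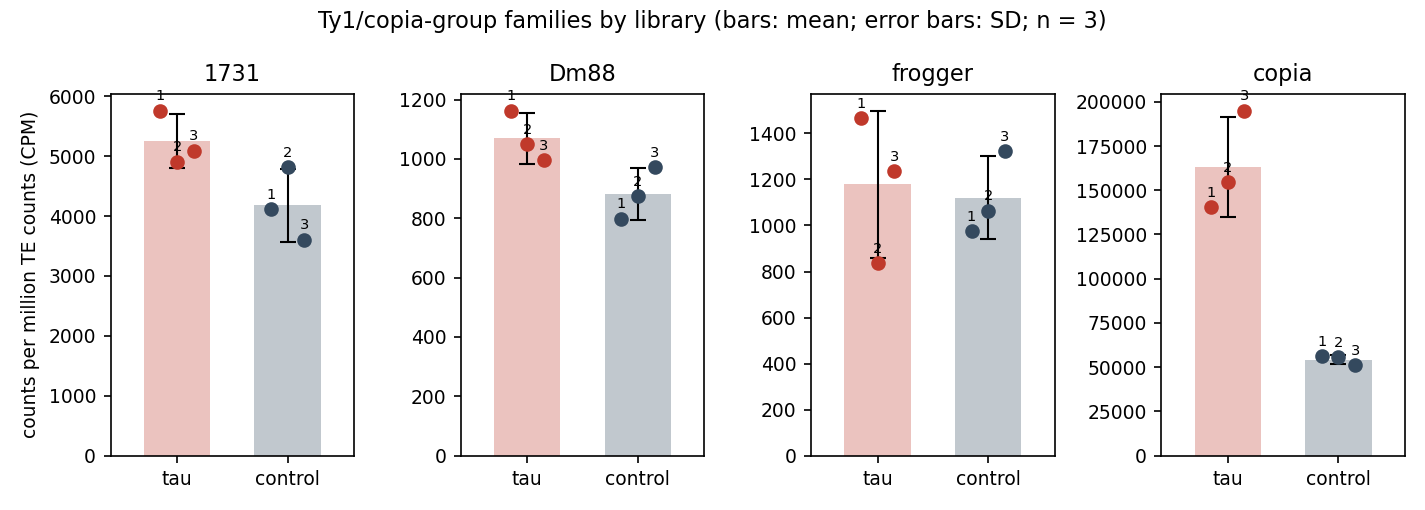
Level of each family in every library, in CPM on the y axis, for tau (left) and control (right); bars are means, error bars SD of 3 libraries, and numbers name the replicate. In 1731 and Dm88 the tau points lie above the control points, in frogger they overlap, and in copia they stand far apart.

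The relative rise of copia set it apart from these families of its own group. Copia had 140460, 154499 and 194927 CPM in tau, against 56049, 55486 and 51195 CPM in control, a log2 fold change of 1.59 (edgeR adjusted p = 3.20e-05). The counts of 1731 were 4.10%, 3.17% and 2.61% of those of copia in tau, against 7.33%, 8.68% and 7.05% in control. Those of Dm88 were 0.672% ± 0.158 in tau, against 1.63% ± 0.241 in control, and those of frogger 0.740% ± 0.267 in tau, against 2.08% ± 0.445 in control (n = 3 each, SD). On the log2 scale the tau minus control difference in the ratio to copia was -1.24 for 1731, -1.30 for Dm88 and -1.53 for frogger, with no overlap of the groups. Each two-sided exact permutation test gave p = 0.1, the smallest that 3 libraries against 3 allow. The ratio to copia was lower in every tau library than in every control library for 96.5% of the other 115 tested families, so the 3 families shared this with nearly all TEs of the table.

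Among themselves the 3 families did not separate. The log2 ratio of 1731 to Dm88 was 2.29 ± 0.06 in tau, against 2.24 ± 0.30 in control (n = 3 each, SD; exact permutation p = 1.0). For 1731 over frogger the tau minus control difference was 0.29, and for Dm88 over frogger it was 0.23, both with overlapping groups and an exact permutation p of 0.6. These 3 ratios share families and are not separate observations.

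In the ranking of the 116 tested families by log2 fold change, copia stood at rank 2, 1731 at 19, Dm88 at 25 and frogger at 54. Of the 4 families of the Ty1/copia group 1 was called, as higher, and their median log2 fold change was 0.29, beside 0.01 over all families. Of the 48 tested Ty3/gypsy families 14 were called higher and 10 lower, with a median of 0.04. Of the 7 tested families of the Bel-Pao group, the third group of fly LTR elements, 1 was called higher and none lower, with a median of -0.0026.

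**Figure D2:**
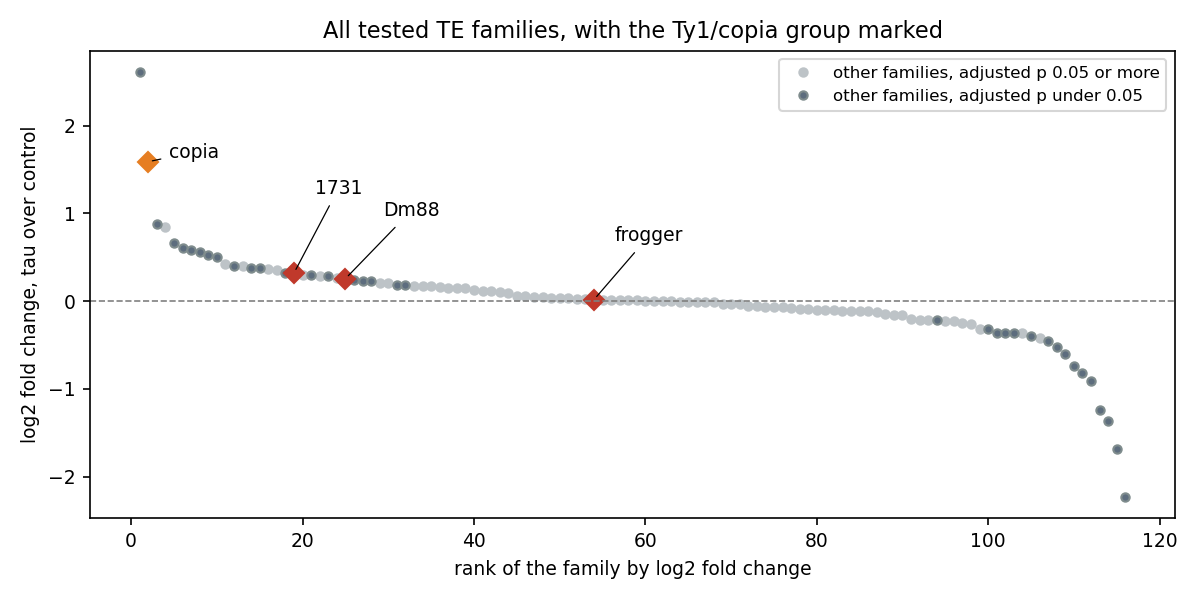
Log2 fold change of tau over control (y axis) for all 116 tested families in order of rank (x axis), with the Ty1/copia group as diamonds and families that passed the test as dark points. Copia stands near the left end, 1731 and Dm88 lie among families that passed and families that did not, and frogger lies at the level of the median.

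The profile of each family over the 6 libraries was also set beside those of the other 115 families, as the root mean square difference of log2 CPM after centring. Nearest to 1731 were micropia, jockey2 and 3S18, at 0.12, 0.13 and 0.13, where the median over families was 0.26. For Dm88 they were invader1, Tirant and G2, at 0.07, 0.10 and 0.10, where the median was 0.22. The nearest to frogger were gypsy3, G2 and S2, at 0.19, 0.22 and 0.23, with a median of 0.31. Of these neighbours micropia and 3S18 passed the family test, both as higher in tau (log2 fold changes 0.29 and 0.23, edgeR adjusted p = 0.00251 and 0.0425). The difference between tau and control is part of the distance, so a similar direction in near families is no separate result.

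Single copies carried the families unevenly. Of the 46 insertions 33 had at least 1 count and 13 had none in any library, 4 of 1731 and 9 of Dm88. For these 13, 0 counts in a total of 1476637 allow a level of up to 2.03 CPM over all libraries, by counting error only. The low-count filter kept 13 of the 33 for the test, 3 of 1731, 8 of Dm88 and both of frogger. None of the 13 was called by edgeR, where 5.92% of the 1249 tested insertions were, and 2.56% as higher in tau. At an unadjusted p under 0.05 it was 2 of the 13, 1731{}2219 and DM88{}Ir41a[593], where it was 18.7% of all. Groups of CPM values did not overlap in 4 of the 13, near the 29.2% of all tested insertions. DESeq2 gave an adjusted p to 10 of the 13 and called 1 of those, 1731{}2219, where it called 11.9% of all insertions to which it gave one, and limma-voom called none of them, where it called 6.57% of all. Copies of near-identical sequence may trade reads, so single copies are less certain than family sums.

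Nearly all 1731 counts fell on 3 copies. The leading one, 1731{}pyd[1272], held 76.3% of the family's counts over all libraries. Its symbol names polychaetoid (pyd), the fly homologue of the junction scaffold protein ZO-1, which RefSeq places on chromosome arm 3R from 8827068 to 8931896 in the Release 6 assembly. Its place in an exon or an intron was not analysed here. This copy had 4124, 3490 and 3817 CPM in tau, against 3385, 3967 and 2891 CPM in control, with overlapping groups. In log2 terms the fold change was 0.16 ± 0.15 (SE, edgeR adjusted p = 0.662).

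The second copy, 1731{}2219, had 115, 299 and 316 counts in tau, against 179, 213 and 143 in control. In CPM it had 1570, 1115 and 1003 in tau, against 618, 783 and 610 in control. Every tau library lay above every control library, where the groups of 29.2% of all tested insertions did not overlap. Its fold change was 0.87 ± 0.22 (SE) on the log2 scale with a 95% interval of 0.32 to 1.42, and the edgeR adjusted p of 0.0951 did not pass. DESeq2 gave an adjusted p of 0.0219. The authors' deposited table lists it with a log2 fold change of 0.73 and an adjusted p of 0.00735, where 9.53% of the insertions with an adjusted p in that table are under 0.05.

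The copy 1731{}3749 had 213 ± 34.7 CPM in tau, against 212 ± 53.0 CPM in control (n = 3 each, SD). Its log2 fold change of 0.01 turned negative with library totals, with the authors' size factors and without the low-count filter (edgeR adjusted p = 0.992). The other 6 counted copies of 1731 had 1 to 17 counts each over all libraries, 0.515% of the family.

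The share of the leading copy of 1731 did not overlap between the genotypes, where it did not in 35.1% of tested families with at least 2 counted copies. The leading pyd copy held 69.3%, 72.8% and 74.7% of the family's counts in tau 1, tau 2 and tau 3, with Wilson 95% intervals of 64.8 to 73.4, 70.3 to 75.1 and 72.5 to 76.8. It held 80.5%, 79.0% and 77.7% in control 1, control 2 and control 3, with intervals of 78.2 to 82.6, 76.8 to 81.1 and 74.8 to 80.3. Its share averaged 72.3% ± 2.77 in tau heads, against 79.0% ± 1.41 in control heads (n = 3 each, SD; two-sided exact permutation p = 0.1, which is the smallest possible). In turn 1731{}2219 held 23.1% ± 3.38 in tau, against 15.6% ± 0.849 in control. Shares of copies within the family depend on each other and are not separate observations. The intervals of single libraries cover counting error only.

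With the pyd copy left out, the remaining 1731 counts rose in tau heads. They summed to 134, 350 and 407 in tau, against 238, 287 and 195 in control, or 1464 ± 266 CPM in tau, against 873 ± 120 CPM in control (n = 3 each, SD). Their log2 fold change was 0.69 ± 0.15 (SE, edgeR adjusted p = 0.0091), with 32.8% of families called in that fit. It passed in each of the other scalings, filters and tests tried and with each library left out, from 0.58 without tau 1 to 0.82 without control 2. The copy 1731{}2219, with 18.6% of the family's counts, makes up most of this sum. As a single insertion it did not pass with edgeR or limma-voom and passed with DESeq2.

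**Figure D3:**
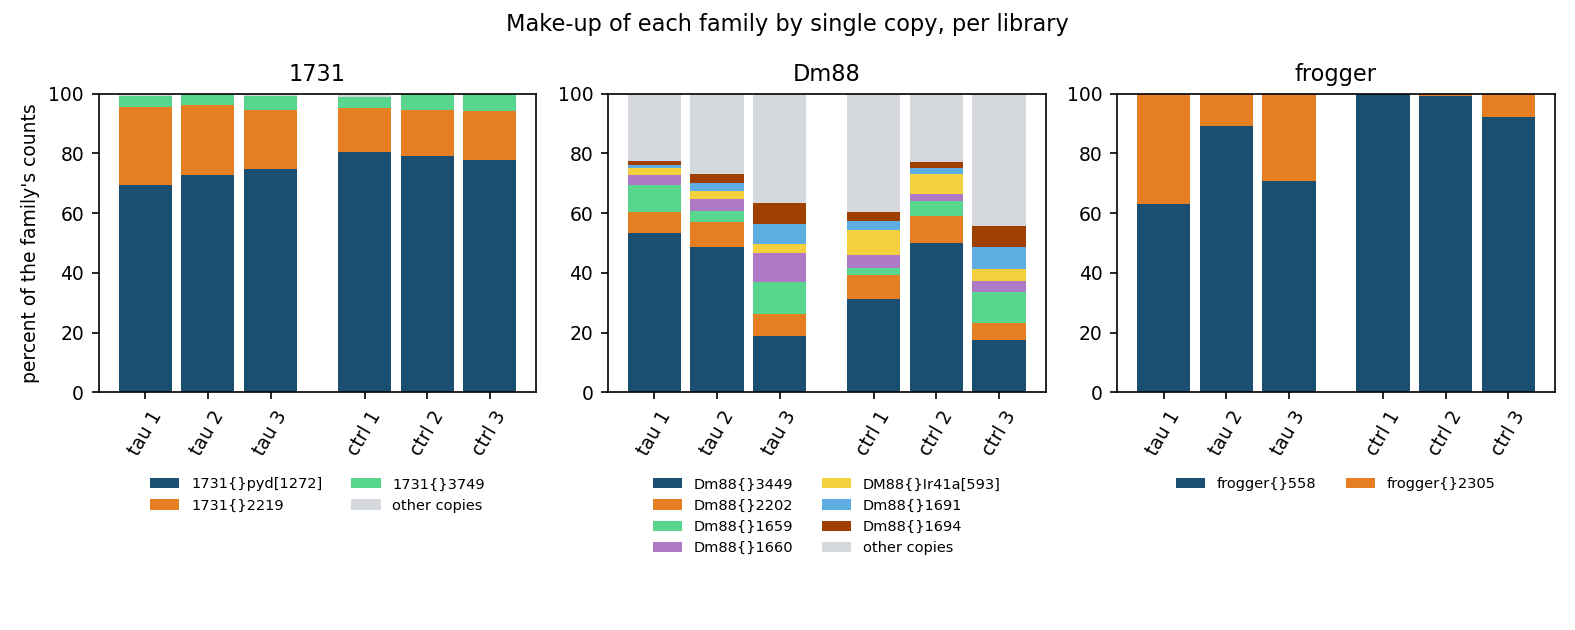
Share of each family's counts (y axis, percent) held by each named copy, per library (x axis, tau left, ctrl for control right); grey is the sum of all other copies. The pyd copy of 1731 and frogger{}558 hold smaller shares in every tau library than in any control library, while the leading copy of Dm88 varies widely within each genotype.

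The 2 copies of frogger had fold changes of opposite sign, neither of which passed. The copy frogger{}558 had 70, 195 and 277 counts in tau, against 289, 299 and 295 in control. Its level was 956, 727 and 879 CPM in tau, against 997, 1099 and 1258 CPM in control, so that every tau library lay below every control library. The groups of 29.2% of all tested insertions did not overlap. Its log2 fold change was -0.39 ± 0.17 (SE), with an edgeR adjusted p of 0.297.

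The other copy, frogger{}2305, had 41, 24 and 114 counts in tau, against 0, 3 and 25 in control. Its level was 560, 89.5 and 362 CPM in tau, against 0, 11.0 and 107 CPM in control, so tau 2 and control 3 overlapped. A log2 fold change of 3.10 ± 1.39 (SE) had a 95% interval of -0.32 to 6.51 and an edgeR adjusted p of 0.317. With this copy alone in place of the family among the other family sums, the value was 3.03 with an edgeR adjusted p of 0.0498. That call was lost without tau 1, tau 3, control 1 or control 2, with library totals, without the low-count filter and with DESeq2.

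As a share of the family, frogger{}2305 held 36.9%, 11.0% and 29.2% of the counts in tau 1, tau 2 and tau 3, with Wilson 95% intervals of 28.5 to 46.2, 7.48 to 15.8 and 24.9 to 33.8. In control 1 it held 0 of 289 counts, with a Wilson 95% upper bound of 1.31%. In control 2 it held 0.993% (0.338 to 2.88) and in control 3 7.81% (5.35 to 11.3). Shares averaged 25.7% ± 13.3 in tau, against 2.94% ± 4.25 in control (n = 3 each, SD; exact permutation p = 0.1, the smallest possible). The lowest tau library and the highest control library were near each other, and their intervals overlapped. Over all tested families with at least 2 counted copies, the share of the leading copy did not overlap between genotypes in 35.1%, and it did not in 2 of the 3 families here, 1731 and frogger.

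Dm88 was spread over many copies of few counts. Of its 31 copies 22 were counted, 14 of them in every library, and 7 had a mean of at least 10 counts. The leading copy, Dm88{}3449, held 34.3% of the family's counts, and 15 copies with 2 to 57 counts each held 33.2%. In CPM Dm88{}3449 had 642, 500 and 190 in tau, against 255, 456 and 175 in control, with wide overlap. Its log2 fold change was 0.56 ± 0.55 (SE, edgeR adjusted p = 0.691). Its share of the family was 40.4% ± 18.6 in tau, against 32.9% ± 16.3 in control (n = 3 each, SD; exact permutation p = 0.6), lowest in tau 3 and control 3. The direction of that difference turned without control 3.

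The copy DM88{}Ir41a[593] was the 1 tested copy of Dm88 with a fold change below 0. Its symbol names Ir41a, an ionotropic receptor gene of olfactory neurons, on chromosome arm 2R from 4917519 to 5021955 in RefSeq's Release 6. It had 2, 7 and 9 counts in tau, against 20, 16 and 9 in control, or 27.3 ± 1.23 CPM in tau, against 55.4 ± 15.6 CPM in control (n = 3 each, SD). All tau libraries lay below all control libraries in CPM, where the groups of 29.2% of all tested insertions did not overlap. The point values of the share of this copy in the Dm88 counts did not overlap either. The share was 2.56% ± 0.292 in tau, against 6.24% ± 2.31 in control (n = 3 each, SD; exact permutation p = 0.1, the smallest possible). Tau shares rested on 2, 7 and 9 counts, with Wilson intervals of 0.625 to 7.91%, 1.24 to 5.16% and 1.51 to 5.34%. Control shares had intervals of 5.53 to 12.7%, 4.01 to 10.2% and 2.03 to 7.12%. The intervals of control 2 and control 3 overlapped those of every tau library. That of control 1 overlapped the interval of tau 1 only. The background given above for shares covers leading copies only. For this copy the log2 fold change of -1.01 ± 0.34 (SE) had an edgeR adjusted p of 0.174. It was not the only lower copy of the family. Among copies removed by the low-count filter, Dm88{}2609 and Dm88{}2610 were lower in tau too, without overlap of the groups. Others of those removed, such as Dm88{}3766, had a higher mean level in tau.

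The Dm88 copy in lncRNA:alphagamma-element:CR32865 had 7, 8 and 19 counts in tau, against 0, 0 and 11 in control. That gene is a noncoding transcript of the alpha-gamma repeats of a heat shock locus, on 3R from 12475336 to 12478267 in RefSeq's Release 6. This copy was named for its place after its counts were seen. Its log2 fold change was 1.92 ± 1.31 (SE, edgeR adjusted p = 0.521), with a 95% interval of -1.31 to 5.15.

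The other copies of Dm88 with a mean of at least 10 counts were Dm88{}2202, Dm88{}1659, Dm88{}1660, Dm88{}1691 and Dm88{}1694. Log2 fold changes were 0.21 for Dm88{}2202, 0.52 for Dm88{}1659 and 1.00 for Dm88{}1660. The groups of Dm88{}1660 did not overlap, as in 29.2% of all tested insertions. For Dm88{}2202 levels ran from 73.0 to 85.8 CPM in tau, against 59.7 to 80.9 CPM in control. Taken in that order, the edgeR adjusted p-values were 0.784, 0.784 and 0.341. The low-count filter removed Dm88{}1691 and Dm88{}1694, whose counts were 1, 8 and 22 in tau, against 7, 5 and 17 in control, the same in both copies. Of the 8 tested copies of Dm88, 7 had a fold change above 0 and 1 below, with a median of 0.54. The largest of these, 1.92 and 1.88, came from the CR32865 copy and Dm88{}1695, both with 0 counts in most control libraries. This tally leaves out the 14 counted copies that the low-count filter removed, which went both ways. All copies of Dm88 but the leading one summed to a log2 fold change of 0.14 (edgeR adjusted p = 0.771).

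Some copies of Dm88 had identical counts in all 6 libraries. Of the 20 Dm88 copies with at least 10 counts in all, 6 shared every count with another copy, in 3 pairs: Dm88{}1691 with Dm88{}1694, Dm88{}2199 with Dm88{}2200 and Dm88{}2609 with Dm88{}2610. In the whole table this held for 58 of 2059 such copies, or 2.82%, and for none of the 4 of 1731 or the 2 of frogger. In a further fit, copies of a family with identical counts were counted once, in all families and at any number of counts above 0. There Dm88 had a log2 fold change of 0.29 and still did not pass (edgeR adjusted p = 0.0758).

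**Figure D4:**
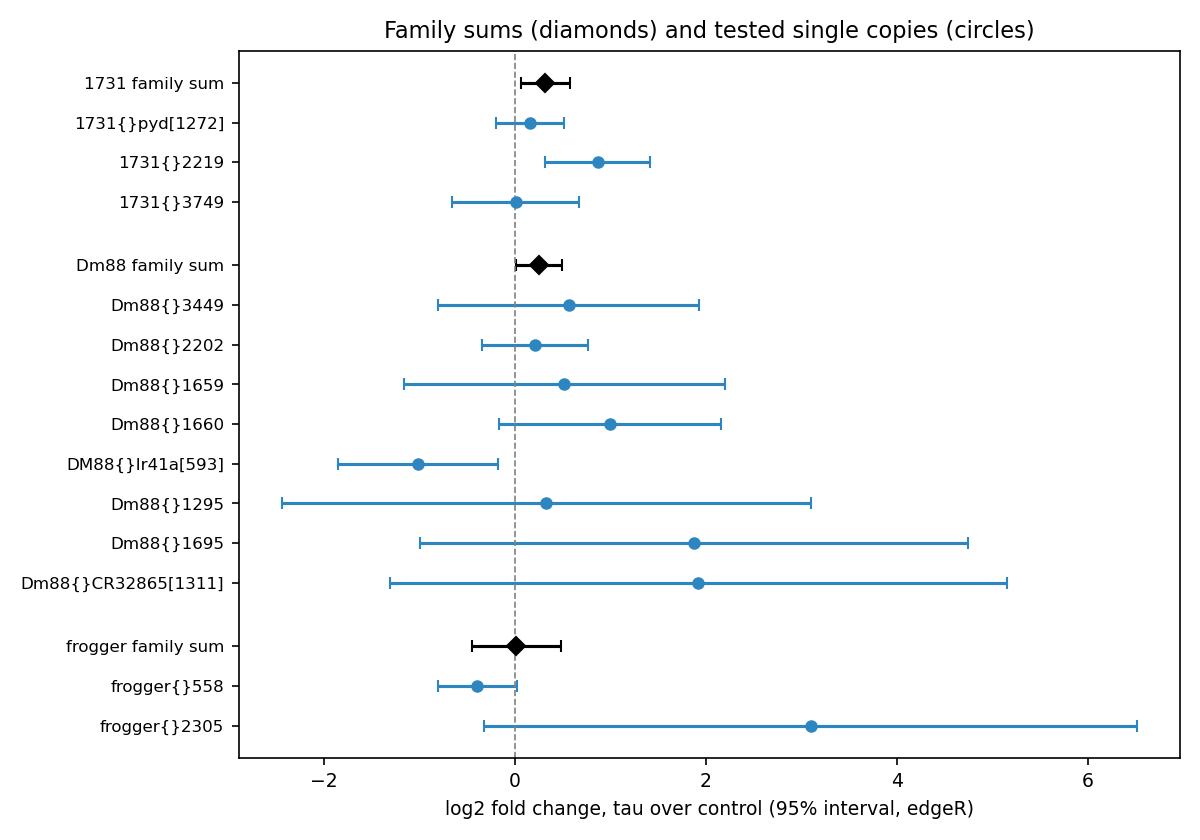
Log2 fold change of tau over control (x axis) with its 95% interval from edgeR, for the sum of each family (diamonds) and for each of the 13 tested copies (circles). The intervals of 1731{}2219 and DM88{}Ir41a[593] lie on opposite sides of 0, and frogger{}2305 has the widest interval of the named copies.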

How the data were processed

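The authors pulled TE reads out with sortmerna, using FlyBase release 6.12 as the reference, according to the series design text. Trimmomatic 0.36 and DESeq2 1.14.1 are named in the submitters' processing notes. The deposited table holds raw counts per insertion and library, and the authors' own normalised mean (a signal that depends on their size factors), log2 fold changes and p-values. How reads matching several copies were counted, and whether strand was used, is not stated in those sources.

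Insertions were named with the FlyBase symbols at hand (5390 of 5392 matched) and summed to 123 families. Family sums and single insertions were tested on the whole table with edgeR 4.0.16 in R 4.3.3 (TMM, default low-count filter, quasi-likelihood F-test, Benjamini-Hochberg adjustment, threshold 0.05). The code was tested on simulated data. Alternatives used DESeq2 1.42.0 and limma 3.58.1. The authors' size factors were recovered from their means. Ratios used a pseudocount of 0.5, and profiles log2(CPM + 1). Named were the 3 families, their copies with a mean of at least 10 counts or a call, copia, and the 3 nearest families each. The members, lists and tests were chosen with earlier results of these data known. Replicates are independent samples per the series design text. Same-numbered libraries of the genotypes were not taken as pairs. Wilson intervals and limits for 0 counts cover counting error only, while edgeR's 95% intervals include the spread between libraries. The small RNA table was not used here, since its entries were not matched to these families.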

Additional observations from a re-analysis of the deposited data

How the results depend on the processing

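All calls rest on 3 libraries a genotype, and tau 1 held only 88 to 436 counts of each of these families. Values are log2 fold changes unless stated. The family 1731 passed with DESeq2 (0.30), under the replicate block (0.33), and without its leading copy (0.69), and ran from 0.23 to 0.44 with 1 library left out. Dm88 kept its direction and did not pass in any setting (0.19 to 0.33 with 1 library left out). The sign of frogger turned with RLE size factors (-0.0060), library totals (-0.069), the authors' size factors (-0.040), limma-voom (-0.021) and identical copies counted once (-0.0012, chosen after seeing the data), and ran from -0.10 to 0.24 with 1 library left out; without frogger{}558 it was 3.03. The copy frogger{}2305 among family sums had 2.95 with library totals, 3.03 without the filter and 3.12 with DESeq2, none of which passed, and 2.39 to 5.67 with 1 library left out. The copies of Dm88 other than the leading one ran from -0.14 to 0.40, and the difference in the leading share of Dm88 from -0.22 to 18.2 percentage points. For 1731{}3749 values were -0.034 with library totals, -0.0055 with the authors' size factors, -0.017 without the filter and -0.17 to 0.20 with 1 library left out. The count of called insertions was 74, and 140 with DESeq2, 9 under the replicate block and 16 to 51 with 1 library left out, and 1 of the insertions called with DESeq2 belonged to these families, against 0 with edgeR. Same-numbered libraries of the genotypes had correlations of deviations of -0.03, 0.11 and 0.26, where differently numbered ones had -0.33 to 0.22. With 3 libraries a genotype, these values cannot show whether the numbers mark pairs. The matching of small RNA entries to these families was not run. The cause of these shifts was not tested.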
